A study of Mus musculus with 2 samples.

Results

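Mature neutrophils among the CD45+ cells of the mouse brain at postnatal day 21 (p21) are described here in WT and twi mice. They were taken from 2 libraries of single-cell 3′ counts, in which each unique molecular identifier (UMI) stands for 1 captured RNA molecule. A cell was kept when at most 15% of its UMIs came from mitochondrial genes, *S100a8* and *S100a9* together made up at least 1% of its UMIs, at least 1 UMI came from *Retnlg*, *Csf3r*, *Cxcr2* or *Il1r2*, *Camp*, *Ngp* and *Ltf* together stayed under 1% of its UMIs, and *Cd79a* and *Cd79b* together had fewer than 2 UMIs. The cells were thus chosen by measured RNA of these genes, which are described without being read as results. The rule kept 145 of 2478 cells, 102 of 1271 in WT and 43 of 1207 in twi.

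Both groups were mice at p21 that received no treatment, of a strain labelled C57Bl/6 and named C57BL/6J in the paper. The WT animals were galc+/+ littermates and the twi animals were galc-/-. The twi (twitcher) mouse carries a natural loss-of-function mutation of *Galc*, which encodes the lysosomal galactosylceramidase, and models Krabbe disease (globoid cell leukodystrophy). Brains were dissociated with enzymes, leukocytes were collected from a Percoll gradient and sorted for CD45, the surface phosphatase that all leukocytes carry, and 2 to 3 animals were pooled into 1 library per genotype. With 1 library per genotype there is no replicate, no test between genotypes was made, and every interval given is a 95% interval that covers counting error only. The pools also differed in the sex of their animals, as read from sex-linked RNA. No cell of the WT gate had a UMI of *Xist* and 31 had one of a Y-linked gene, whereas 5 of the 43 twi cells had *Xist* and 3 had a Y-linked gene, so genotype, sex, animal and library cannot be told apart. *Galc* had 0 UMIs in the WT cells and 1 in the twi cells, and since the mutation leaves a transcript that these counts cannot tell from the normal one, its level is no check of genotype.

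Neutrophils are short-lived phagocytes that leave the bone marrow after their granule genes have been expressed in sequence, primary granule genes first, then secondary, then tertiary. Mature cells have largely stopped transcribing the secondary granule genes *Camp*, *Ngp* and *Ltf* and carry large amounts of *S100a8* and *S100a9*, which encode the calcium-binding proteins that form calprotectin. In tissue they respond to microbial and sterile danger signals through receptors that activate NF-κB, release IL-1β and chemokines such as CXCL2 that recruit more neutrophils, and respond to interferons with antiviral genes.

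The cells carried the neutrophil program in both libraries. *S100a8* and *S100a9* took a median of 24.9% of the UMIs of a WT cell and 23.3% of a twi cell, and *Retnlg*, which encodes a resistin-like protein of mature neutrophils, was found in 99 of 102 WT and 38 of 43 twi cells, against 26.2% of WT and 12.8% of twi B cells. *Csf3r*, the G-CSF receptor, was found in 68 WT and 30 twi cells, and *Cxcr2*, the receptor for CXCL2, in 64 and 32. Of the 20 neutrophil genes listed apart from the rule, all 20 passed the minimum of 20 UMIs over both libraries. They include *Mmp9*, a matrix metalloprotease of tertiary granules, found in 87.3% of WT and 79.1% of twi cells against 2.0% and 0.7% of B cells, and *Hdc*, the histamine-forming enzyme, found in 75.5% and 86.0% against 0.9% and 0% of B cells. A count of 0 of 149 twi B cells allows a share of cells with a UMI of up to 2.01%, taking 3 counts as the floor. The 6 primary granule genes had 4 UMIs in WT and 4 in twi together, with *Prtn3* and *Ms4a3* at 0 in both. The neutrophil label is thus borne out by markers that the rule did not use. That the cells are mature was set by the rule's limit on *Camp*, *Ngp* and *Ltf*, and these markers do not test it. The 20 markers were also abundant in the neutrophils above that limit, whose levels are given below.

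The libraries were shallow for these cells. The WT cells held 177285 UMIs with a median of 1286.5 per cell and a range of 718 to 8323, and the twi cells held 87603 UMIs with a median of 1699 and a range of 981 to 7642. The libraries shared 0 cell barcodes. Near the limit on *S100a8* and *S100a9*, 3 WT and 3 twi cells lay between 1% and 3% of UMIs, and the lowest were at 1.09% and 1.35%. Of the cells that met every other part of the rule but fell short of 1%, the highest held 0.677% in WT and 0.268% in twi. Near the limit on *Camp*, *Ngp* and *Ltf*, the highest cells inside held 0.864% in WT and 0.885% in twi, the lowest outside held 1.02% and 1.19%, and 33 WT and 22 twi cells held none. Cells thus lay close to the granule gene limit on both sides, and few lay near the limit on *S100a8* and *S100a9*.

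A few barcodes in the gate also carried RNA of other leukocytes. Cells with at least 2 UMIs of *Cd3d*, *Cd3e* and *Cd3g*, of *C1qa*, *C1qb* and *C1qc*, or of *Csf1r*, *Ccr2*, *F13a1* and *Ms4a6c* are called mixed cells below. There were 7 in WT, with 14.5% of the UMIs of the gate, and 2 in twi, with 15.8%. The deepest WT barcode held 8323 UMIs, 1.09% from *S100a8* and *S100a9* and 20 from the monocyte genes. A further 3 WT barcodes held 178, 143 and 160 UMIs of a microglia list. The deepest twi barcode held 7642 UMIs, 2.03% from *S100a8* and *S100a9*, 34.9% from ribosomal protein genes and 116 from a list of NK cell genes. The other twi barcode held 6230 UMIs, 3.47% from *S100a8* and *S100a9*, 93 from *Plac8* and 13 from the monocyte genes. Because these few cells weigh heavily in sums of UMIs, the main lists and genes are given with and without them, and values are for all cells of the gate where nothing else is said.

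**Figure D1:**
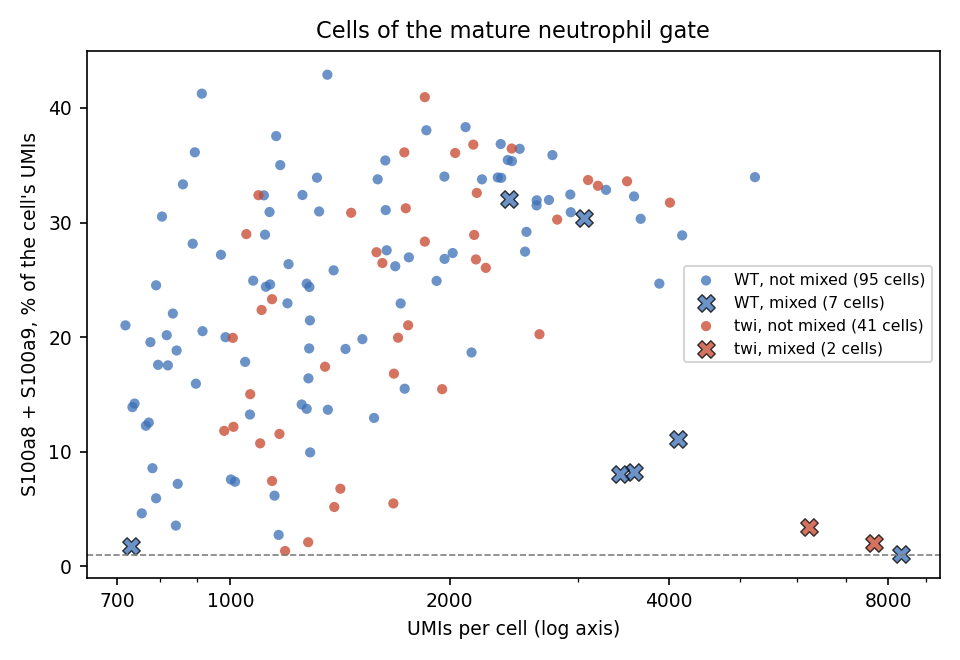
Each point is 1 cell of the gate, with its UMIs on a log axis and the percentage of them from *S100a8* and *S100a9* on the vertical axis. WT cells are blue and twi cells red, mixed cells are crosses, and the dashed line is the limit of 1%. The 3 deepest cells with S100 shares under 4% are all mixed cells.

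The marker lists of other cell types show where such RNA lay. The summed UMIs of the 10 microglia genes were 503 in WT and 7 in twi, and 10 and 6 without mixed cells, where *Tmem119*, *Trem2* and *Siglech* were at 0 in both libraries. The 10 NK cell genes, most abundant *Gzma*, had 20 and 137 UMIs, and 18 and 20 without mixed cells. The 10 monocyte genes, most abundant *Ly6c2*, had 286 and 96 UMIs, and 132 and 55 without mixed cells, of which *Ly6c2* gave 116 and 50. The 9 T cell genes found in the files had 16 and 15 UMIs, and the 10 B cell genes 57 and 15. Hemoglobin and other erythroid genes, most abundant *Hbb-bs*, had 305 and 82 UMIs. Their ratio of CPM (UMIs per 1000000 UMIs of the summed cells), twi over WT, was 0.544 (95% interval 0.421 to 0.696). *Hbb-bs* was also lower in twi B cells, with a ratio of 0.523. Free RNA was present in both libraries: a UMI of *S100a8* was found in 69.4% of WT and 33.6% of twi B cells, which should lack it. Of the markers of mast cells, basophils and eosinophils 9 of 10 were at 0, of dendritic cells 7 of 8 and of brain cells 7 of 9. The part of free RNA in the results below was not tested.

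Mature neutrophils made up 8.03% of the WT cells (95% interval 6.59 to 9.66%) and 3.56% of the twi cells (2.59 to 4.77%), a ratio of 0.444 (0.303 to 0.640). Of all 1207 twi cells 574 had *Xist*, against 5 of the 43 mature neutrophils, and without cells with *Xist* the ratio was 0.748. A Y-linked gene was found in 233 of the 1207 and 3 of the 43, so the sex of most of these neutrophils was not read. Leaving out cells with *Xist* thus removes unequal parts of the gate and of the whole, and cells without it cannot all be taken as male. These shares depend on what else was in the sort. B cells made up 43.2% of the WT and 12.3% of the twi library, and T cells 21.95% and 63.7%. Among cells with fewer than 2 UMIs of *Cd79a* and *Cd79b* the ratio was 0.281 (0.192 to 0.405), and when cells with 2 or more UMIs of the *Cd3* genes were also left out, the shares were 25.4% and 17.8% and the ratio was 0.701 (0.479 to 1.01). Immature neutrophils, which met the same rule with *Camp*, *Ngp* and *Ltf* at 1% or more, numbered 125 in WT and 24 in twi. Mature cells were therefore 44.9% of both kinds of neutrophil in WT (38.3 to 51.7%) and 64.2% in twi (51.5 to 75.5%), a ratio of 1.43 with an interval of 0.976 to 2.06.

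Across the genes with at least 20 UMIs in both libraries together, most lay within 2-fold of each other in the gate. Of 1403 genes, 121 were at least 2-fold higher in twi (8.62%) and 103 at least 2-fold lower (7.34%), and the median log2 ratio was 0.04. Without mixed cells, 52 of 1166 genes were at least 2-fold higher (4.46%) and 75 at least 2-fold lower (6.43%). The sets shared 38 higher and 48 lower genes. Ribosomal protein genes made much of the difference between them: 44 of 85 were at least 2-fold higher in twi with all cells and 2 of 78 without mixed cells, where their median log2 ratio was 0.34 in place of 1.02.

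Activation genes were higher in the twi neutrophils. The 25 listed genes summed to 7220.0 CPM in WT and 10799 CPM in twi. The ratio was 1.496 (95% interval 1.37 to 1.63), and it was 1.52 (1.39 to 1.66) without mixed cells. Of the 16 with enough UMIs, 12 were higher in twi, 5 of them at least 2-fold, and none was at least 2-fold lower, beside the 8.62% and 7.34% of all genes. Their median log2 ratio was 0.53. The median cell held 63.3 UMIs of the list per 10000 in WT and 109 in twi, and the ranges overlapped widely, from 12.02 to 410.1 in WT and from 18.8 to 471 in twi.

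*Nfkbia* encodes IκBα, the inhibitor that NF-κB itself induces and that holds NF-κB in the cytoplasm. It lies on the minus strand of chromosome 12 (GRCm38, chr12:55489410-55492647). There were 195 UMIs in the WT cells, or 1099.9 CPM (951 to 1266), and 257 UMIs in the twi cells, or 2934 CPM (2586 to 3315). The ratio was 2.67 (2.21 to 3.23) and was 2.71 without mixed cells. It was found in 50 of 102 WT cells (49.0%, 39.0 to 59.1%) and 30 of 43 twi cells (69.8%, 53.9 to 82.8%), and the shares were 31.4% and 60.5% when every cell was thinned to 500 UMIs. B cells transcribe this gene too and showed no higher level in twi, with 519 CPM in WT and 410.3 in twi. The difference did not rest on 1 cell, since the twi cell with most *Nfkbia* held 32 of its 257 UMIs.

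The RefSeq promoter windows of *Nfkbia* and of *Cxcl2*, a chemokine gene discussed below, are shown because both genes are known NF-κB targets, yet only the first differed 2-fold between the libraries. Each window runs from 250 bases before to 50 bases after the start of the gene on GRCm38.p6. Capitals mark GGGA, any 4 bases and CC on either strand, a loose form of the NF-κB site. They are found in 20.73% of the 32851 RefSeq promoters of this length, in 8 of the 18 activation genes with a promoter in the table and in 12 of the 21 such cytokine and chemokine genes. The 2 matches in *Cxcl2* overlap.
Nfkbia (chr12:55492598-55492897, minus strand): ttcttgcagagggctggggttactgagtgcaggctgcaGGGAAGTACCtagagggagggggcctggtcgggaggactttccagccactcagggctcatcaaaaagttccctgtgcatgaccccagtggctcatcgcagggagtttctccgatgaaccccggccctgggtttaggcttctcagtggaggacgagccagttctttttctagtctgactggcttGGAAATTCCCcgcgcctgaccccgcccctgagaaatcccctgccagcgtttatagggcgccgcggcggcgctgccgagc
Cxcl2 (chr5:90903649-90903948, plus strand): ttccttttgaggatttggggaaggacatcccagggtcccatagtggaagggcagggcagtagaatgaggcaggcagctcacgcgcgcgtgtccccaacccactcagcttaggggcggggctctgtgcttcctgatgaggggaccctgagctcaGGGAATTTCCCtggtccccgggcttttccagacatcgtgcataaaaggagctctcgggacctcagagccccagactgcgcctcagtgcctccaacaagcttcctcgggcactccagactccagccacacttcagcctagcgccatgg

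*Cd14* encodes the co-receptor that hands bacterial lipopolysaccharide to TLR4. The WT cells held 50 UMIs, or 282 CPM, and the twi cells 74, or 845 CPM, a ratio of 2.995 (2.06 to 4.38) that was 3.15 without mixed cells. It was found in 25.5% of WT and 53.5% of twi cells, against 0.5% and 2.0% of B cells, and in 12.7% and 30.2% after thinning. *Gadd45b*, a stress and NF-κB target, had 33 and 54 UMIs, with a ratio of 3.31 (2.11 to 5.27) and of 3.48 without mixed cells. *Ier3*, another early NF-κB target, had 43 and 37 UMIs and a ratio of 1.74 (1.09 to 2.77), or 1.70 without mixed cells. *Nfkbiz*, which encodes the nuclear cofactor IκBζ, had 43 and 35 UMIs and a ratio of 1.65 (1.02 to 2.63), or 1.89 without mixed cells. *Tnfaip3*, which encodes the NF-κB inhibitor A20, had only 8 and 12 UMIs, with a ratio of 3.04 (1.14 to 8.56).

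Other genes of the list ranged from higher to lower in twi. *Irg1*, the itaconate-forming enzyme also named *Acod1*, had 22 and 23 UMIs and a ratio of 2.12 (1.13 to 3.98), with 9 of the 23 twi UMIs in 1 cell. *Hcar2*, a receptor for nicotinate and ketone bodies, had a ratio of 1.77 (1.17 to 2.65), or 2.103 (1.36 to 3.26) without mixed cells. *Cebpb*, a transcription factor of emergency granulopoiesis, had 330 and 169 UMIs and a ratio of 1.04 (0.856 to 1.25). It was the most abundant gene of the list in WT, whereas *Nfkbia* was in twi. *Ptgs2*, the inducible cyclooxygenase, had a ratio of 1.16 (0.67 to 1.95), or 0.853 without mixed cells, *Clec4e*, the receptor Mincle, of 0.976 (0.66 to 1.43), *Plaur*, the urokinase receptor, of 0.869 (0.65 to 1.16) and *Il1rn*, the IL-1 receptor antagonist, of 0.778 (0.40 to 1.44). *Cd83* was at 0 in both libraries.

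**Figure D2:**
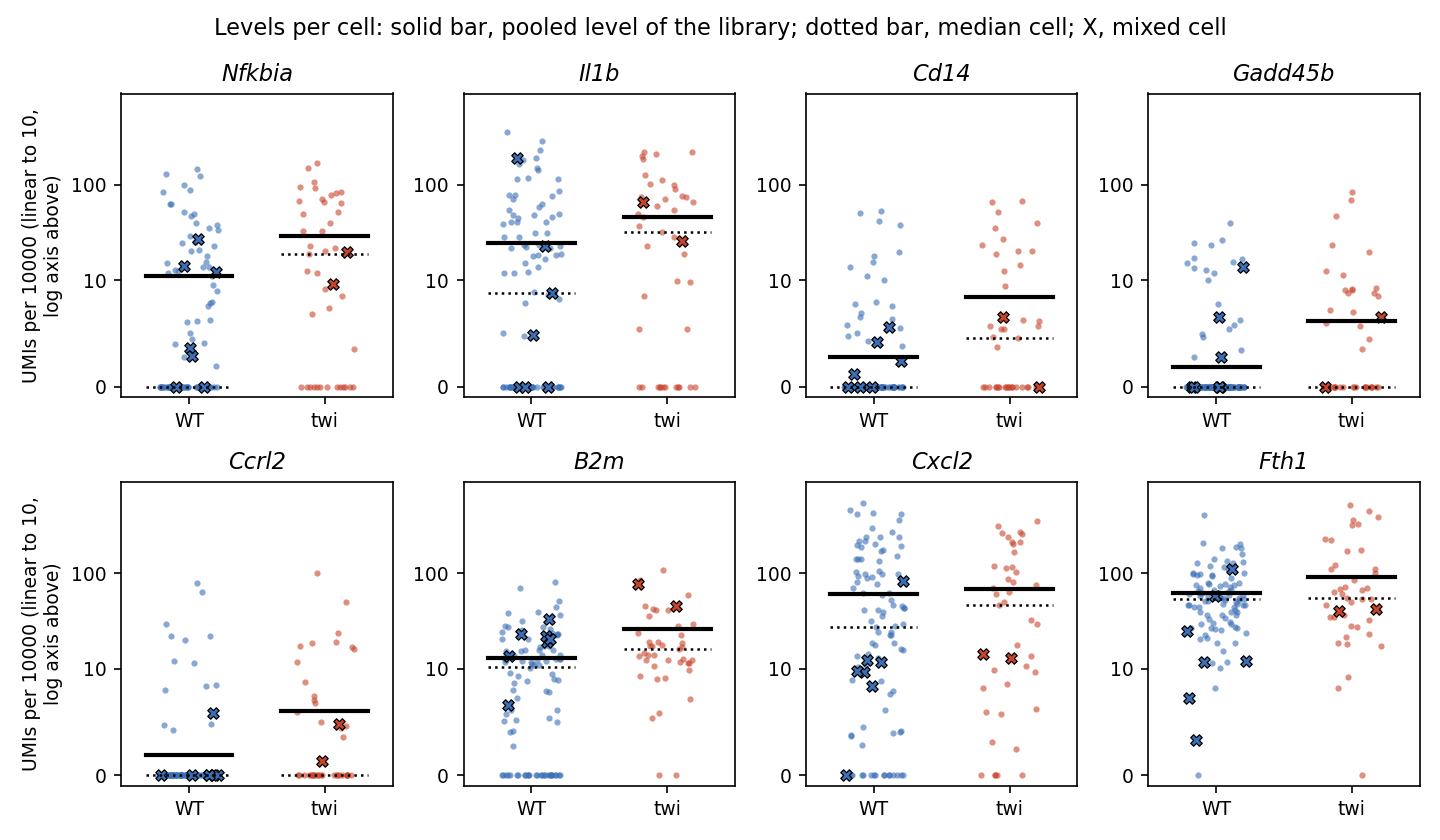
Each point is 1 cell, with the UMIs of the gene per 10000 UMIs of the cell on an axis that is linear up to 10 and logarithmic above. Solid bars are the pooled level of a library, dotted bars the median cell and crosses mixed cells. In each of the 8 panels the cells of both libraries overlap, and the pooled bar is higher in twi by 1.11-fold for *Cxcl2* and by 2.67-fold for *Nfkbia*.

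Among cytokines and chemokines, *Il1b* was higher in twi and the other abundant genes lay closer to 1. *Il1b*, which encodes the pyrogenic cytokine IL-1β (chr2:129364570-129371139, minus strand), had 433 UMIs in WT, or 2442 CPM (2218 to 2684), and 407 in twi, or 4646 CPM (4206 to 5120.0). The ratio was 1.90 (1.66 to 2.18) and was 1.72 (1.48 to 1.99) without mixed cells. It was found in 58 of 102 WT and 31 of 43 twi cells (56.9% and 72.1%), in 47.1% and 62.8% after thinning, and in 2.4% and 0% of B cells. The level of the median cell was 8.85 UMIs per 10000 in WT and 32.4 in twi, while the highest cells reached 357 in WT and 219 in twi. The highest *Il1b* cell was therefore a WT cell, and more of the twi cells lay in the upper range.

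*Cxcl2*, a ligand of CXCR2, was the most abundant chemokine gene, with 1083 UMIs in WT and 593 in twi and a ratio of 1.11 (1.00 to 1.23). *Ccl6* had 683 and 293 UMIs and a ratio of 0.868 (0.754 to 0.997). *Osm*, which encodes oncostatin M, had 182 and 84 UMIs and a ratio of 0.934 (0.71 to 1.22). *Ccl3* and *Ccl4*, which encode MIP-1α and MIP-1β, had ratios of 0.944 (0.61 to 1.43) and 0.841 (0.54 to 1.29), with 35 of 77 WT and 19 of 32 twi UMIs of *Ccl4* in 1 cell each. Without mixed cells these ratios were 1.38 (0.88 to 2.17) and 1.01 (0.64 to 1.57). *Csf1*, the growth factor of macrophages, had 4 UMIs in 4 WT cells and 11 in 6 twi cells, a ratio of 5.57 (1.65 to 23.96). *Tnf* had 12 and 4 UMIs and a ratio of 0.675 (0.16 to 2.23). *Il6*, *Il10*, *Il1a*, *Cxcl1*, *Cxcl9* and *Cxcl10* were among 10 listed genes at 0 in both libraries. All 28 genes together had a ratio of 1.16 (1.09 to 1.24). Of the 6 with enough UMIs, 2 were higher and 4 lower, none 2-fold, beside 8.62% and 7.34% of all genes. Without mixed cells the ratio was 1.15 (1.08 to 1.23), 4 were higher and 2 lower, and the median log2 ratio was 0.09 in place of -0.08.

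Of the 18 receptor genes with enough UMIs, 10 were higher in twi, 2 of them at least 2-fold, beside 8.62% of all genes. *Ccrl2*, which encodes a chemerin-binding receptor that NF-κB signals induce, had 34 UMIs in 15 WT cells and 53 in 20 twi cells. Its ratio was 3.15 (2.01 to 5.01) with all cells and 3.15 (1.98 to 5.08) without mixed cells. *Tnfrsf1a*, the receptor for TNF, had a ratio of 1.70 (1.02 to 2.81), and *Ptafr*, the receptor for platelet-activating factor, had 16 UMIs in each library and a ratio of 2.02 (0.95 to 4.32), or 2.80 (1.204 to 6.75) without mixed cells and 0.949 after thinning to 500 UMIs. *Fpr1*, the receptor for formylated peptides, had 56 and 14 UMIs and a ratio of 0.506 (0.26 to 0.92). *Cxcr4*, the receptor that holds neutrophils in the marrow and returns aged cells to it, had a ratio of 1.01 (0.61 to 1.65). The 8 adhesion genes with enough UMIs included 2 that were higher and 6 that were lower. None was past 2-fold, beside 8.62% and 7.34% of all genes. *Cd44*, the hyaluronan receptor, had a ratio of 0.721 (0.48 to 1.06).

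The summed ratios of the stress lists lay closer to 1 than that of the activation genes. Some of their intervals overlap, and differences between lists were not tested. Immediate early genes, which follow any strong stimulus and also the warm digestion of tissue, summed to 17204 CPM in WT and 18470 CPM in twi, a ratio of 1.07 (1.01 to 1.14) that was 1.18 (1.11 to 1.26) without mixed cells. *Junb*, the most abundant, had a ratio of 1.14 (0.99 to 1.32), *Fos* of 0.955 (0.81 to 1.12) and *Jun* of 0.856 (0.55 to 1.30). The *Jun* ratio ranged from 0.484 to 1.90 over the 12 processing alternatives, and 9 of them left it on the same side of 1. Of the 18 immediate early genes with enough UMIs, 9 were higher and 9 lower. With all cells 1 was at least 2-fold higher and 1 at least 2-fold lower, beside 8.62% and 7.34% of all genes. Without mixed cells 11 of 17 were higher and 6 lower, none 2-fold, beside 4.46% and 6.43% of all genes. *Zfp36*, which encodes tristetraprolin and destabilizes cytokine mRNAs, had a ratio of 1.34 (1.11 to 1.63), *Dusp1*, a MAP kinase phosphatase, of 1.30 (1.10 to 1.54) and *Btg2* of 1.32 (1.06 to 1.65). *Rhob* had 57 and 11 UMIs and a ratio of 0.391 (0.18 to 0.75), which was 0.663 (0.29 to 1.39) without mixed cells.

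Heat shock and chaperone genes had a summed ratio of 1.21 (1.03 to 1.42) with all cells and 1.07 (0.866 to 1.32) without mixed cells. Of those with enough UMIs, 5 of 9 were higher with all cells, and 2 of 6 were higher and 4 lower without mixed cells. With all cells none was at least 2-fold higher and 1 was at least 2-fold lower, beside 8.62% and 7.34% of all genes. Without mixed cells none was past 2-fold, beside 4.46% and 6.43% of all genes. The summed ratio lay below 1 when every cell had the same weight (0.948). *Hspa1a* had 72 and 53 UMIs, found in 16 WT and 10 twi cells, and *Hspa8* went from a ratio of 1.58 to 1.07 without mixed cells. *Hspa1b* was lower in twi, with a ratio between 0 and 0.418 over the 12 processing alternatives. Hypoxia and glycolysis genes had a ratio of 0.960 (0.860 to 1.07), and *Pgam1*, a glycolytic mutase, had 54 and 12 UMIs and a ratio of 0.450 (0.22 to 0.85). Genes of the unfolded protein response had a ratio of 1.05 (0.803 to 1.38) and those of the glucocorticoid response one of 1.17 (1.03 to 1.33). Among the latter *Tsc22d3*, the glucocorticoid-induced leucine zipper, had one of 1.36 (0.96 to 1.91). It lay between 0.678 and 1.37 over the 12 processing alternatives.

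Among oxidative and metal stress genes, *Fth1* stood out. It encodes ferritin heavy chain, which stores iron, and had 1106 UMIs in WT and 793 in twi, or 6239 and 9052 CPM, a ratio of 1.45 (1.32 to 1.59) that was 1.43 without mixed cells. Its partner *Ftl1*, the light chain, had 1232 and 598 UMIs and a ratio of 0.982 (0.89 to 1.08). Both are found in nearly every cell of the gate. *Prdx5*, a peroxiredoxin, had a ratio of 0.752 (0.62 to 0.91), and *Hmox1*, heme oxygenase, had 11 UMIs in each library. The 10 genes with enough UMIs included 4 that were higher and 6 that were lower in twi, and *Hmox1* alone was past 2-fold, beside 8.62% of all genes. Without mixed cells none of 10 was, and *Hmox1* had a ratio of 1.68 (0.62 to 4.47), and of 1.19 after thinning of all cells.

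Type I interferon response genes summed to 5939.6 CPM in WT and 10513 CPM in twi. The ratio was 1.77 (95% interval 1.62 to 1.94), and 8 of 19 genes were at least 2-fold higher in twi, none at least 2-fold lower, beside 8.62% and 7.34% of all genes. Without mixed cells 6 of 16 were at least 2-fold higher, beside 4.46% of all genes. This difference lay in very few cells. The twi barcode with 93 UMIs of *Plac8*, a mixed cell, held 254 of the 921 twi UMIs of the list, and 1 other twi cell, with 1674 UMIs and not mixed, held 167. The 3 highest twi cells held 49.7% of the UMIs, against 13.5% in the 3 highest WT cells. The median cell held 53.8 UMIs of the list per 10000 in WT and 59.5 in twi. Without mixed cells the ratio was 1.47 (1.33 to 1.62), and without the highest remaining cell of each library it was 1.16.

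**Figure D3:**
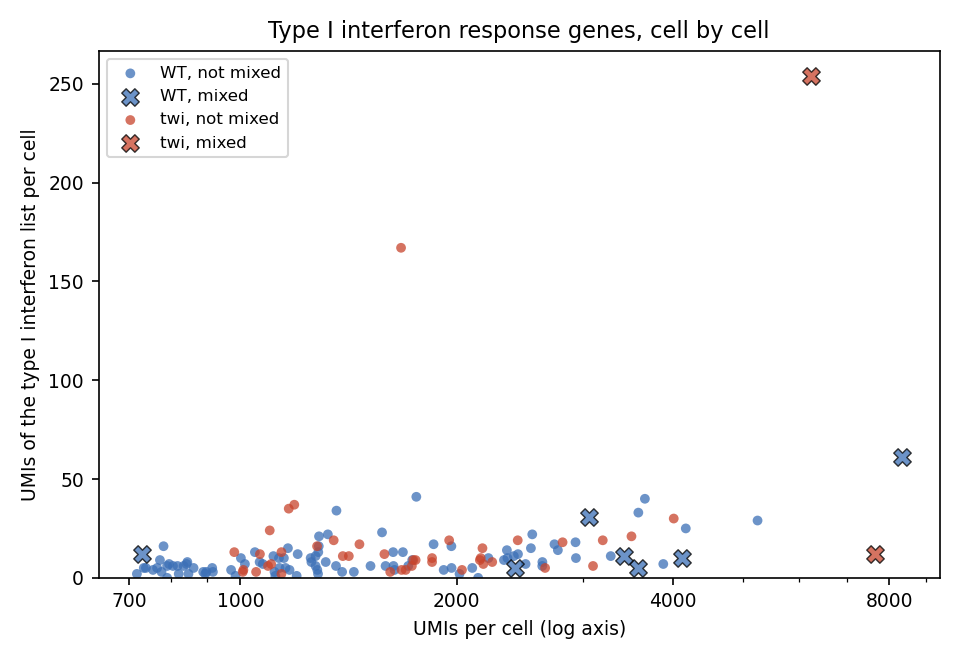
Each point is 1 cell of the gate, with its UMIs on a log axis and its UMIs of the type I interferon list on the vertical axis. WT cells are blue, twi cells red and mixed cells crosses. The 2 twi cells at 254 and 167 UMIs stand far above all others, the next of which is a WT mixed cell at 61.

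*Isg15*, which encodes a ubiquitin-like modifier, shows the pattern. It had 32 UMIs in WT, spread over 20 cells with at most 4 each, and 53 in twi, in 5 cells with up to 27 each. The ratio of CPM was 3.35 (2.12 to 5.37), but the gene was detected in 19.6% (12.4 to 28.6%) of WT and 11.6% (3.9 to 25.1%) of twi cells, against 2.7% and 4.0% of B cells. *Ifit3*, an antiviral protein that binds foreign RNA, had 9 UMIs in 4 WT cells and 34 in 5 twi cells, 23 of them in 1 cell, and a ratio of 7.65 (3.59 to 18.1). Without mixed cells and the highest remaining cell of each library, the ratio was 0.954 for *Isg15* and 2.08 for *Ifit3*. *Irf7*, the transcription factor that amplifies interferon production, had 9 UMIs in 9 WT cells and 31 in 7 twi cells, and *Rsad2*, which encodes viperin, 9 and 21 in 5 cells each. In B cells *Ifit3* was found in 1.8% and 5.4% and *Irf7* in 4.7% and 10.1% of cells. *Ifit3b* is a close copy of *Ifit3* and may share reads with it. *Isg20*, an exonuclease, was found in 5 WT and 9 twi cells with 5 and 20 UMIs, a ratio of 8.09 (2.95 to 27.6).

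The promoter windows of *Isg15* and *Ifit3* are shown for the letters of the interferon-stimulated response element, GAAA, any 2 bases and GAAA on either strand, in capitals. These letters are in 3.44% of all promoters of this length and in 20 of the 41 genes of the type I list with a promoter in the table. The 3 matches in *Isg15* overlap.
Isg15 (chr4:156200769-156201068, minus strand): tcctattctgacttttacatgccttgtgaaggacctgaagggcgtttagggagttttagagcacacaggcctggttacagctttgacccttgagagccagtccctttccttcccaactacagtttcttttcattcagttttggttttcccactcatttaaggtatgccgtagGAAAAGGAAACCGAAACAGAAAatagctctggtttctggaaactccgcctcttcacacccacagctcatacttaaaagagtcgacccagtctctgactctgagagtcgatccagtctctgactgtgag
Ifit3 (chr19:34583279-34583578, plus strand): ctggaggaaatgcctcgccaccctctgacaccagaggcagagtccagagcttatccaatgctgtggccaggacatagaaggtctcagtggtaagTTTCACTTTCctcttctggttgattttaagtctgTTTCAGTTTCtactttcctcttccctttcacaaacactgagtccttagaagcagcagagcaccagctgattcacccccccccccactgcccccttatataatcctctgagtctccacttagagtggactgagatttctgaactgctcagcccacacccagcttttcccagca

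Some members of the type I list were spread over many cells. *Ifitm2*, a membrane protein that blocks virus entry, had 162 UMIs in 67 WT cells and 165 in 37 twi cells, a ratio of 2.06 (1.65 to 2.58) that was 2.03 (1.59 to 2.58) without mixed cells. It was found in 38.2% of WT and 58.1% of twi cells after thinning, against 1.5% and 2.0% of B cells. *Slfn4*, a schlafen gene of myeloid cells, had 23 and 22 UMIs and a ratio of 1.94 (1.03 to 3.63). *Ifitm3*, the neighbour of *Ifitm2* in the same family, had a ratio of 1.52 (1.25 to 1.85), and 81 of its 182 twi UMIs lay in 1 mixed cell, so that the ratio was 1.04 (0.813 to 1.33) without mixed cells. *Ifi27l2a* had a ratio of 1.03 with all cells and of 0.568 (0.383 to 0.823) without mixed cells, where 134 WT and 37 twi UMIs remained. *Oas3*, *Oasl2*, *Samd9l* and *Sp100* had ratios between 0.746 and 0.92. *Mx1* was at 0 in both libraries.

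Interferon gamma response genes had a summed ratio of 1.41 (1.28 to 1.55), or 1.26 (1.13 to 1.41) without mixed cells, and 9 of the 10 with enough UMIs were higher in twi, 3 at least 2-fold beside 8.62% of all genes. Without mixed cells 2 of 10 were past 2-fold, beside 4.46% of all genes. *B2m*, the invariant chain of MHC class I, had 230 UMIs in each library, or 1297 CPM in WT and 2625 CPM in twi. The ratio was 2.02 (1.68 to 2.44) and was 1.71 (1.36 to 2.14) without mixed cells. It was found in 73.5% of WT and 95.3% of twi cells, and in 43.1% and 60.5% after thinning. It was also found in 94.9% of WT and 96.0% of twi B cells, and the part of free RNA in this ratio was not tested. Of the class I heavy chain genes, *H2-D1* had a ratio of 1.10 (0.95 to 1.27) and *H2-K1* of 1.25 (0.85 to 1.81). *Socs3*, a feedback inhibitor of cytokine signalling, had 17 UMIs in each library and a ratio of 2.02 (0.97 to 4.22), and *Psme1*, a proteasome activator subunit, 10 and 18 UMIs and a ratio of 3.64 (1.59 to 8.83). The guanylate-binding protein gene *Gbp7* had 1 UMI in WT and 9 in 7 twi cells, with an interval of 2.52 to 798, while *Gbp5* and *Ciita* were at 0.

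**Figure D4:**
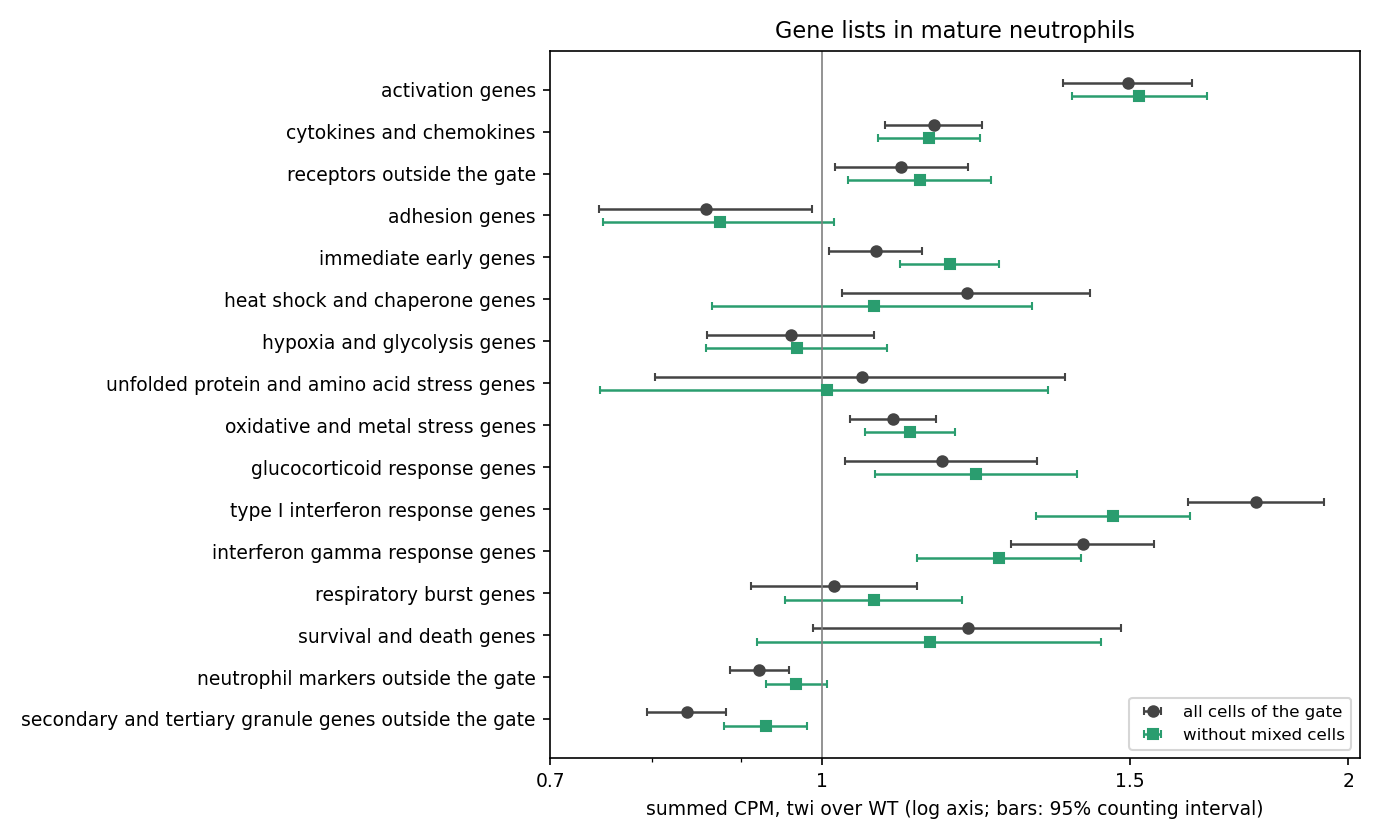
Each row is a gene list, with the summed CPM of twi over WT on a log axis. Grey circles are all cells of the gate, green squares leave out mixed cells, and bars are 95% counting intervals. Activation genes stay near 1.5 in both, and the type I interferon list moves from 1.77 to 1.47.

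Other lists of the neutrophil program follow. Genes of the respiratory burst, which encode the NADPH oxidase, had a summed ratio of 1.02 (0.911 to 1.13), with *Rac2* at 1.18 (0.98 to 1.40). *Ncf1* was at 0.635 (0.43 to 0.93), and between 0.169 and 0.713 over the 12 processing alternatives. Genes of survival and death had a summed ratio of 1.21 (0.989 to 1.48), and *Mcl1*, on which neutrophil survival depends, one of 1.25 (0.88 to 1.76). Maturation factors had one of 1.03 (0.928 to 1.15), and cell cycle genes one of 0.980 (0.81 to 1.18). Secondary and tertiary granule genes apart from those of the rule had one of 0.838 (0.795 to 0.882), or 0.929 (0.880 to 0.981) without mixed cells. Of those with enough UMIs 11 of 13 were lower in twi, none 2-fold, beside 8.62% higher and 7.34% lower of all genes. The 20 neutrophil markers had one of 0.922 (0.886 to 0.958), or 0.967 (0.929 to 1.01) without mixed cells. Of these markers 7 were higher and 13 lower in twi, and 8 and 12 without mixed cells. None was past 2-fold, beside 8.62% and 7.34% of all genes, or 4.46% and 6.43% without mixed cells. The highest was *Lrg1* with a ratio of 1.21 (0.82 to 1.78). Among the lower ones *Ly6g*, the surface marker used to sort neutrophils, had a ratio of 0.589 (0.40 to 0.85) and *Wfdc21* of 0.642 (0.549 to 0.747). Of the rule's own genes, *Camp* had 152 and 35 UMIs, a ratio of 0.466, and *Ngp* one of 0.956. A UMI of *Camp* was also found in 20.04% of WT and 2.0% of twi B cells and one of *Ngp* in 32.1% and 16.1%, and the part of free RNA in these ratios was not tested.

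The cells of each library also varied with their S100 share. *S100a8*, *S100a9* and *Retnlg* chose the cells, so this ordering is a description of the gate. In the 95 WT and 41 twi cells that were not mixed, the share of *S100a8* and *S100a9* went with the level of *Retnlg* (Spearman's rho 0.67 in WT and 0.80 in twi) and with that of 7 granule and surface genes of late stages, *Lcn2*, *Mmp8*, *Mmp9*, *Wfdc21*, *Pglyrp1*, *Ly6g* and *Cd177* (0.67 and 0.84). It went against the level of *Il1b* (-0.67 and -0.71) and of the immediate early genes (-0.83 and -0.82). These correlations are across cells of 1 library, share each cell's total as a denominator, and describe these cells only. The share also went with depth, and the median cell held 1002 UMIs in WT and 1178.5 in twi under a share of 15%, and 2103 and 2167 at 30% or more.

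Compared at like S100 shares, the ratios of the genes were as follows. Under 15%, with 19 WT and 10 twi cells, the *Il1b* level was 11265 and 12393 CPM, a ratio of 1.10 (0.888 to 1.36), and *Nfkbia* had a ratio of 1.19 (0.85 to 1.68). Between 15 and 30%, with 41 and 17 cells, *Il1b* stood at 2659 and 5768 CPM, a ratio of 2.17 (1.73 to 2.72), and *Nfkbia* had one of 3.98 (2.89 to 5.54). At 30% or more, with 35 and 14 cells, the ratios were 1.66 (0.948 to 2.88) and 3.56 (2.32 to 5.51). *Cd14* had its highest ratio under 15% (5.69, 2.67 to 13.5), on 9 and 33 UMIs, and *Fth1* went from 1.68 (1.39 to 2.03) under 15% to 1.97 (1.70 to 2.28) between and to 0.681 (0.56 to 0.82) at 30% or more. *B2m* had a ratio of 2.11 (1.41 to 3.17) under 15%, 1.42 (0.95 to 2.104) between and 1.38 (0.91 to 2.08) at 30% or more. The type I interferon list had ratios of 2.53 (2.12 to 3.03), 1.02 and 0.949, and under 15% 167 of its 331 twi UMIs lay in 1 cell. *Cxcl2* lay between 0.958 and 1.12 in the 3 ranges. Whether the ratios differ between these ranges was not tested.

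**Figure D5:**
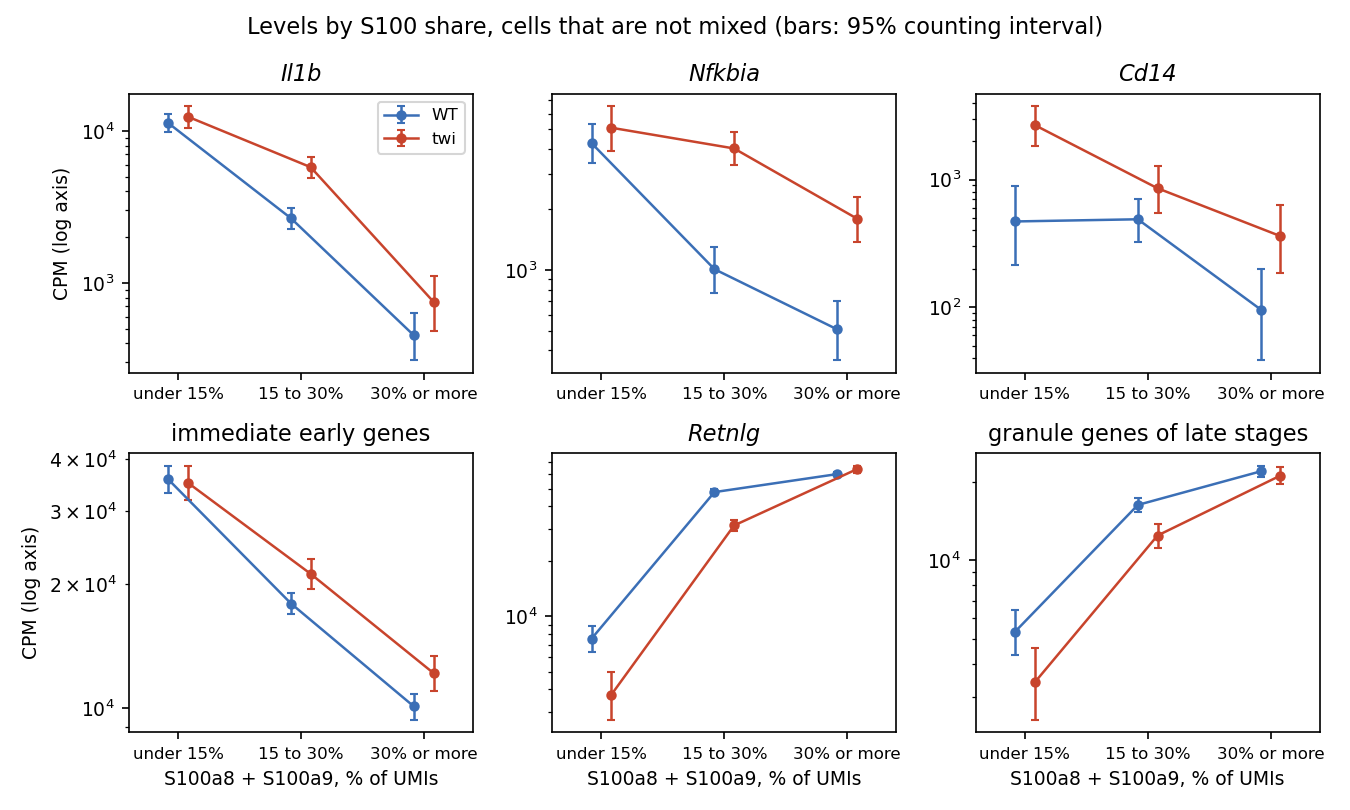
Pooled CPM on a log axis of 4 genes and of 2 groups of genes in cells of 3 ranges of S100 share, mixed cells left out, WT blue and twi red, with 95% counting intervals. *Il1b*, *Nfkbia* and the immediate early genes are lower and *Retnlg* and the late granule genes higher where the S100 share is higher, in both libraries.

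Genes were also ranked by the bound of the ratio's interval that is nearest to 1, without regard to lists. Of the 12 ranked highest with all cells, 7 encode ribosomal proteins and 3 remained among the 12 highest without mixed cells, and 8 of the 12 lowest remained. *Plac8* ranked first, with a ratio of 9.57 (6.00 to 15.9), but 93 of its 104 twi UMIs lay in 1 mixed cell. *Cst3*, which encodes the secreted protease inhibitor cystatin C, and *Lgmn*, which encodes the lysosomal protease legumain, ranked lowest at 0.333 and 0.0906 (from 3 UMIs in twi, 0.0182 to 0.276), and without mixed cells *Cst3* had a ratio of 1.25 and *Lgmn* had 0 UMIs in WT and 1 in twi. Without mixed cells the 12 highest were *Ifit3*, *BC100530*, *Nfkbia*, *Gadd45b*, *Cd14*, *Ccrl2*, *Stfa1*, *Asprv1*, *Isg15*, *Stfa2*, *Ifitm2* and *Rps15a*.

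The stefin genes of that ranking encode small inhibitors of cysteine proteases and lie within one cluster on chromosome 16 (*Stfa1* at chr16:36276951-36285373, *BC100530* at chr16:36359382-36367748, *Stfa2* at chr16:36403992-36408457). They are close copies, so reads may be shared among them. *BC100530* had 143 UMIs in 18 WT cells and 231 in 15 twi cells, a ratio of 3.27 (2.64 to 4.06), and *Stfa1* had 191 in 21 and 216 in 13 cells, a ratio of 2.29 (1.88 to 2.80). *Stfa2* had 54 and 60 UMIs in 10 and 8 cells. Between 15 and 30% of S100 RNA *BC100530* and *Stfa1* together had a ratio of 4.78 (3.96 to 5.78), under 15% one of 0.371 (0.17 to 0.73) and at 30% or more one of 1.43 (1.03 to 1.96). The 3 highest twi cells held 49.9% of the UMIs of both genes, and the 3 highest WT cells 34.1%. *Asprv1*, a retroviral-type aspartic protease found in neutrophils, was spread more evenly, with 135 UMIs in 50 WT and 141 in 30 twi cells and a ratio of 2.11 (1.66 to 2.70).

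Genes that ranked lowest in both rankings were spread over many WT cells. *Hist1h1c*, a linker histone, had 82 UMIs in 41 WT cells and 11 in 9 twi cells, a ratio of 0.271 (0.13 to 0.512). *Ssh2*, a phosphatase that activates the actin-severing protein cofilin, had 46 UMIs in 39 WT cells and 5 in 5 twi cells, a ratio of 0.220 (0.0682 to 0.551). *Lamtor4*, a subunit of the complex that recruits mTORC1 to lysosomes, had 74 and 13 UMIs and a ratio of 0.356 (0.181 to 0.646). *Tkt*, the transketolase of the pentose phosphate pathway, had 95 and 22 UMIs and a ratio of 0.469 (0.281 to 0.751), and *Tmcc1* had one of 0.466 (0.292 to 0.718).

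The same values are given for other cells of the sort. The 20 neutrophil markers stood at 46326.5 CPM in WT and 42693 in twi in mature neutrophils, and at 46274 and 47535 in immature ones. Primary granule genes stood at 22.6 and 45.7 CPM in mature and 74.1 and 0 in immature neutrophils. Secondary and tertiary granule genes apart from those of the rule stood at 27842 and 23321 CPM in mature, 57860 and 63760 in immature neutrophils. Activation genes stood at 7220.0 and 10799 CPM in mature, 3020.5 and 3609 in immature neutrophils and 2117 and 2332 in monocytes without C1q, with ratios of 1.496, 1.19 (1.08 to 1.33) and 1.10 (1.00 to 1.21). *Nfkbia* had a ratio of 1.77 (1.39 to 2.25) and *Cd14* of 4.85 (2.88 to 8.25) in immature neutrophils, and *Nfkbia* one of 1.21 (0.98 to 1.49) in monocytes. *Cd14* was higher in twi in each of these gates, with a ratio of 2.50 (1.29 to 5.13) in monocytes, 5.23 (1.70 to 26.1) in T cells from 3 and 55 UMIs and 13.4 (3.54 to 74.7) in B cells from 3 and 11 UMIs. *Fth1* had a ratio of 1.501 (1.33 to 1.70) in immature neutrophils and of 2.31 (2.09 to 2.56) in monocytes. *Il1b* was at 92.1 CPM in WT and 22.7 in twi in immature neutrophils, from 46 and 3 UMIs. The type I interferon list had ratios of 1.02 (0.940 to 1.10) in immature neutrophils, 1.91 (1.81 to 2.01) in monocytes, 2.23 (2.14 to 2.33) in T cells and 1.02 (0.940 to 1.10) in B cells. *BC100530*, higher in mature twi cells, had a ratio of 0.629 (0.40 to 0.96) in immature ones. Differences between the gates were not tested.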

How the data were processed

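CD45+ brain cells of WT and twi mice at p21 were loaded as 1 pooled library per genotype, and the authors counted reads with Cell Ranger 2.1.1 on mm10, per the submitters' processing notes. The deposited values are UMI counts, 27998 gene rows for 1278 WT and 1220 twi barcodes. Rows with the same symbol were summed, which left 27933 symbols, and 7 WT and 13 twi barcodes over 15% mitochondrial UMIs were dropped. UMIs of the gate cells were summed per library and scaled to CPM. Levels carry exact Poisson intervals, ratios exact conditional intervals and shares exact Clopper-Pearson intervals, all at 95% and for counting error only. Log2 ratios used a pseudocount of 0.5 UMI, and genes counted as tested had 20 UMIs or more in both libraries together. Lists are given by their summed CPM, median log2 ratio and counts past 2-fold. The genes named were those of the rule, members of the lists and the 12 highest and 12 lowest in twi, ranked by the bound of the ratio's interval nearest to 1 among genes with at least 100 mean CPM and 25 UMIs in the library of higher level, without markers of other cells, mitochondrial, immunoglobulin and sex-linked genes. The members and lists were chosen with earlier results of these data known. No doublet caller was run, and mixed cells were left out as an alternative. Thinning drew 500 UMIs per cell, and no gate cell was shallower. The computation of the intervals was checked on simulated sums with independent Poisson counts per gene, the model that the intervals assume. They held the true ratio for 99%, 97.2% and 95% of genes at true folds of 0.25, 1 and 4. The simulation had no clustering of UMIs in cells, so it does not test the intervals for that. Alternatives changed the limits of the rule, the denominator, the weight of cells, the scaling, the pseudocount and the minimum count. Leaving out cells over 5000 UMIs, the cell with most UMIs of a list or gene, or that cell and the mixed cells, the ranking without mixed cells, and the share among cells other than B and T cells were chosen after seeing the data. The listed *Clec7a*, *Mx2*, *Cebpd*, *Ighm*, *Ighd*, *Igkc*, *Trac*, *Trbc1* and *Trbc2* were not used here. Promoters came from RefSeq (GRCm38.p6) and gene positions from GENCODE on GRCm38. Python 3.11.15, numpy 2.4.6, scipy 1.17.1, pandas 2.3.3 and matplotlib 3.10.9 were used.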

Additional observations from a re-analysis of the deposited data

How the results depend on the processing

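No paired analysis was possible because each genotype had a single pooled library, and no library could be left out in turn for the same reason. The ratio of the shares of mature neutrophils, 0.444, was 0.748 without cells with *Xist*, 0.281 among cells other than B cells and 0.701 among cells other than B and T cells. Values without cells with *Xist* are not a comparison of male cells, since *Xist* was missed in an unknown part of the cells. The 121 genes at least 2-fold higher in twi were 52 without mixed cells, 57 without cells over 5000 UMIs, 33 after thinning to 500 UMIs, 615 with a minimum of 5 UMIs per gene and 57 with one of 50. The 103 genes at least 2-fold lower were 25 after thinning, 692 with a minimum of 5 UMIs and 23 with one of 50. Activation genes kept a ratio between 1.39 and 1.57 in all 12 alternatives, *Nfkbia* one between 2.05 and 2.91, *Il1b* between 1.38 and 2.04 and *Cd14* between 2.37 and 3.34. The type I interferon list, 1.77 with all cells, was 1.47 without mixed cells, 1.42 without cells with *Xist*, 1.51 without cells over 5000 UMIs, 1.40 without the highest cell and 1.16 without mixed cells and the highest remaining cell. The interferon gamma list, 1.41, was 1.26, 1.28 and 1.22 without mixed cells, cells with *Xist* and cells over 5000 UMIs, and 1.22 without mixed cells and the highest remaining cell. Cytokines and chemokines were at 1.06 after thinning, and immediate early genes at 1.18 without mixed cells and 1.15 without the highest remaining cell as well. Heat shock genes, 1.21, turned to 0.978 with *Camp*, *Ngp* and *Ltf* under 0.2%, 0.948 with each cell weighing the same, 0.869 after thinning and 0.908 without cells over 5000 UMIs, and were 1.02 without mixed cells and the highest remaining cell. The 20 neutrophil markers turned from 0.922 to 1.01 without cells over 5000 UMIs. *Crip1* turned to 1.62 with *S100a8* and *S100a9* at 3% or more, 1.03 without mixed cells, 1.19 after thinning, 1.11 without cells over 5000 UMIs and 1.58 without the highest cell. *Cst3* turned to 1.25 without mixed cells and 1.198 without the highest remaining cell as well, where *Ifi204* turned to 0.864 and *Isg15* to 0.954, and *Ptafr* turned to 0.949 after thinning. The cause was not tested beyond the cells each alternative leaves out. With 43 twi cells, a gene of 20 UMIs carries a counting interval wider than 2-fold.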
